A study of Oryctolagus cuniculus with 9 samples.

Results

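CHEK2 and 8 further genes that sense or signal DNA damage were examined in the diaphragm of New Zealand white rabbits: the effector kinases CHEK2 and CHEK1, the apical kinases ATM and ATR, the break sensors NBN and RAD50, the ADP-ribosyltransferases PARP1 and PARP3, and the glycosylase OGG1. The members were the rows of the deposited table whose gene symbol was one of these names, which gave 9 of 29076 genes, and all 9 were among the 12981 genes that passed the filter on low values (a mean of at least 0.5 FPKM over the 9 libraries). FPKM is a read count divided by transcript length and by library size. The MV group held 3 libraries of rabbits under volume-controlled ventilation in assist-control mode for 48 h, with a positive end-expiratory pressure (PEEP) of 0 cmH2O. The MV_PEEP group held 3 libraries of rabbits ventilated with PEEP, labelled PEEP8 with neither a unit nor the length of ventilation. The CON group held 3 libraries of anaesthetized, spontaneously breathing rabbits, so anaesthesia was common to the MV and CON groups. Age and sex are not given in the sources used here, and the labels do not say that each library came from a separate rabbit, so the p-values measure only the spread between libraries.

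Cells detect broken DNA through a relay. The MRN complex, which contains NBN and RAD50, binds double-strand break ends and recruits ATM, whereas ATR responds to single-stranded DNA; ATM mainly activates CHEK2 and ATR mainly activates CHEK1, and both effector kinases slow the cell cycle and act on p53. PARP1 and PARP3 attach ADP-ribose to proteins at breaks, and OGG1 removes oxidized guanine in the first step of base excision repair. These proteins are regulated largely by phosphorylation and recruitment, neither of which is measured by RNA sequencing, and most myofibre nuclei of the diaphragm do not divide.

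Total counts lay between 24670232 and 43697018 in the MV group, between 33024311 and 41077310 in the MV_PEEP group and between 21646702 and 31791693 in the CON group. The skeletal muscle markers were high in all libraries, with none of the 7 that could be matched at 0, and their summed FPKM was 28270 to 42023 in the MV group, 21173 to 42670 in the MV_PEEP group and 55849 to 65738 in the CON group. The neutrophil markers summed to 30.5 to 1067 FPKM in the MV group (highest in library 1), 152 to 286 FPKM in the MV_PEEP group and 2.96 to 19.1 FPKM in the CON group. Of the 8 neutrophil markers, MPO was at 0 in each library of the MV group, CXCR2 and MPO in each of the MV_PEEP group, and CXCR2, MMP9, LCN2 and MPO in each of the CON group. MV_PEEP library 3 stood apart by fibroblast markers (3732 FPKM, against 131 to 1521 FPKM in the other 8 libraries), macrophage markers (52.96 FPKM, against 3.96 to 22.3 FPKM) and proliferation markers (68.9 FPKM, against 16.3 to 28.6 FPKM). Macrophage markers summed to 11.7 to 22.3 FPKM in the MV group and 3.96 to 10.2 FPKM in the CON group, without overlap. In the MV_PEEP group they summed to 7.58 to 52.96 FPKM, which overlapped both. Markers of lymphocytes (3.96 to 10.1 FPKM in the MV, 1.66 to 5.58 FPKM in the MV_PEEP and 2.20 to 11.96 FPKM in the CON group), endothelium (24.7 to 146, 52.0 to 261 and 58.5 to 147 FPKM in the same order of groups) and satellite cells (4.73 to 6.89, 4.002 to 5.63 and 3.23 to 9.28 FPKM) overlapped between the groups. The part of these cell types in the results on the DNA damage genes was not tested. In bulk tissue, fewer cells of a type and less RNA per cell cannot be told apart.

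At an adjusted p below 0.05 (edgeR quasi-likelihood test, Benjamini-Hochberg adjustment over 12981 genes), 0 of the 9 genes passed in any comparison, and so did 0 of all genes tested (0.0%). At an unadjusted p below 0.05, CHEK2, PARP3 and NBN were higher and OGG1 was lower in MV over CON, that is 3 of 9 higher and 1 of 9 lower, against 3.77% of all genes higher and 3.19% lower. The MV_PEEP group differed from the CON group in the same sense for CHEK2 and PARP3, 2 of 9 higher and 0 of 9 lower, against 3.23% and 3.02% of all genes. Between the MV_PEEP and MV groups OGG1 was higher and no member was lower at that threshold, against 2.26% of all genes higher and 1.26% lower. With both ventilated groups averaged and set against the CON group, 3 of 9 were higher and 0 of 9 were lower, against 3.6% and 3.84% of all genes. The MV and MV_PEEP comparisons with the CON group share the CON libraries. DESeq2, tried as an alternative, called CHEK2 and PARP3 in each of the 3 comparisons with the CON group and no member between the ventilated groups. Over all genes DESeq2 called 154 genes in MV over CON, 98 in MV_PEEP over CON, 15 in MV_PEEP over MV and 203 in the ventilated libraries over CON, whereas limma on log2(FPKM + 1) called 2, 2, 1 and 5 in the same order of comparisons.

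**Figure D1:**
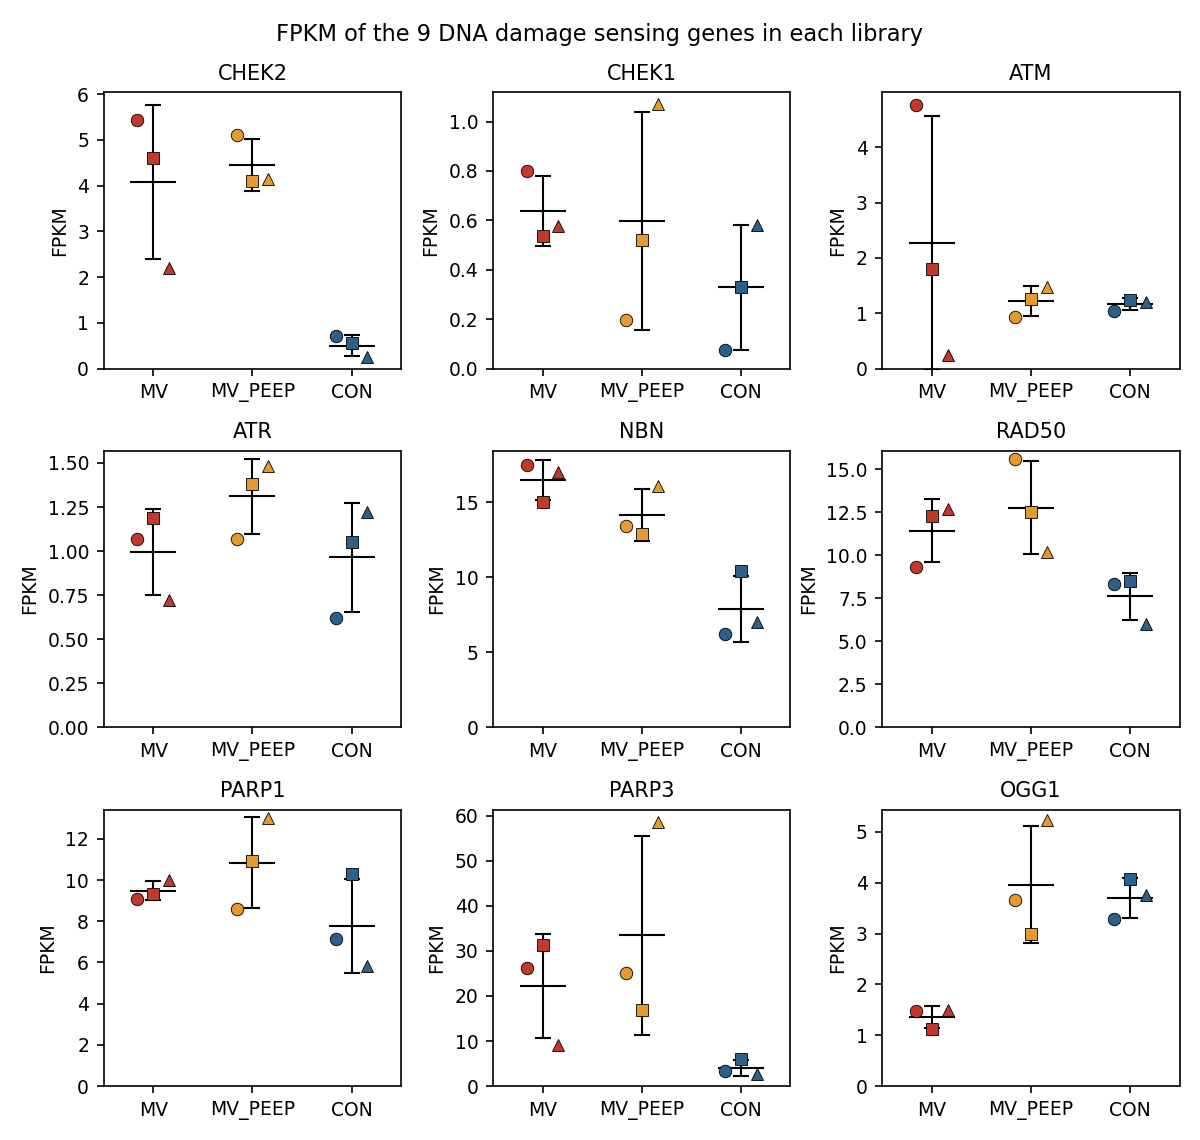
FPKM of each gene (linear axis, starting at 0) in the 3 libraries of the MV, MV_PEEP and CON groups. Circles, squares and triangles are replicates 1, 2 and 3, and the bars are the mean with 1 SD, which is cut at 0 for ATM. CHEK2 and PARP3 lie higher in all 6 ventilated libraries than in the CON libraries, and OGG1 lies lowest in the MV group.

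CHEK2, the effector kinase that ATM activates after double-strand breaks, had the largest edgeR log2 fold change against the CON group among the 9 genes, whereas PARP3 led on log2(FPKM + 1). It measured 5.44, 4.61 and 2.19 FPKM in the MV libraries, 5.11, 4.09 and 4.14 FPKM in the MV_PEEP libraries and 0.706, 0.552 and 0.245 FPKM in the CON libraries. Every ventilated library lay above every CON library, with MV library 3 the lowest of the ventilated ones and CON library 3 the lowest of all. The mean was 4.08 ± 1.69 FPKM in the MV group, 4.45 ± 0.575 FPKM in the MV_PEEP group and 0.501 ± 0.235 FPKM in the CON group (SD, n = 3 each). In counts these were 192, 283 and 136 reads in the MV group, 266, 193 and 242 reads in the MV_PEEP group and 32, 20 and 8 reads in the CON group. The count of 8 has an exact 95% Poisson interval of 3.45 to 15.8, and that of 136 has one of 114 to 161, both of which cover counting error only. Over all genes, 8855 of the 16302 counts between 1 and 12 were multiples of 4, and with counts divided by 4 the log2 fold change of CHEK2 in MV over CON was 2.78. CHEK2 was one of the genes the study singled out from these libraries, so its difference is not independent evidence about the gene set.

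The log2 fold change of CHEK2 was 2.81 (SE 0.56, 95% interval 1.57 to 4.06) in MV over CON, with an unadjusted p of 0.000506 and an adjusted p of 0.287 by edgeR with Benjamini-Hochberg adjustment. It was 2.79 (SE 0.56, adjusted p = 0.320 by the same edgeR test) in MV_PEEP over CON. By DESeq2 the adjusted p was 0.000548 in MV over CON and 0.000721 in MV_PEEP over CON. With the 6 ventilated libraries set against the 3 CON libraries, the exact 2-sided permutation test of the mean FPKM gave an unadjusted p = 0.0119. That is the smallest p that this design allows, and 3 libraries against 3 cannot go below 0.1. The same permutation test gave 0.0238 for RAD50 and 0.0476 for PARP3. By edgeR the adjusted p of CHEK2 in this comparison was 0.145. Between the ventilated groups the log2 fold change of CHEK2 was −0.02 in MV_PEEP over MV, with a 95% interval from −1.17 to 1.13, so differences of more than 2-fold either way remained within the interval. In FPKM the MV library with the highest summed neutrophil markers (library 1, 1067 FPKM) was the highest for CHEK2. The ventilated library with the lowest (MV library 3, 30.5 FPKM) was the lowest for CHEK2. Within the MV_PEEP group the order differed in FPKM. Its library 2 had the highest neutrophil markers (286 FPKM) but narrowly the lowest CHEK2 (4.09 FPKM, against 4.14 FPKM in library 3). On TMM-scaled counts MV_PEEP library 1 was the highest for CHEK2. On that scale MV_PEEP library 3, with the lowest neutrophil markers of its group (152 FPKM), was the lowest of its group for CHEK2. The part of neutrophils in the CHEK2 values was not tested.

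CHEK1, the effector kinase of the ATR branch and best known from replicating cells, was the least abundant of the 9 genes in each group. Its FPKM was 0.799, 0.537 and 0.576 in the MV libraries, 0.198, 0.521 and 1.07 in the MV_PEEP libraries and 0.0767, 0.330 and 0.582 in the CON libraries. The groups overlapped, and in FPKM MV_PEEP library 3, which had the highest proliferation markers, was the highest for CHEK1. On TMM-scaled counts MV library 1, which had the lowest proliferation markers (16.3 FPKM), was the highest for CHEK1. CON library 1 rested on 10 reads (exact 95% Poisson interval 4.80 to 18.4). The log2 fold change was 0.86 (SE 0.77) in MV over CON and 0.39 (SE 0.76) in MV_PEEP over CON, each within the spread between libraries. In MV over CON it was 0.41 without CON replicate 1 and 1.64 without CON replicate 3. In MV_PEEP over CON it was −0.04 without CON replicate 1 and −0.03 without MV_PEEP replicate 3.

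ATM, the apical kinase of the double-strand break response, varied more within the MV group than between groups. It measured 4.76, 1.79 and 0.251 FPKM in the MV libraries, 0.937, 1.25 and 1.47 FPKM in the MV_PEEP libraries and 1.04, 1.24 and 1.20 FPKM in the CON libraries. The MV group held both the highest and the lowest library of the series, on 1208 and 112 reads. In MV over CON its log2 fold change was 0.73 (SE 0.68) with all libraries, −0.33 without MV replicate 1, which had the highest neutrophil markers, and 1.25 without MV replicate 3 (unadjusted p = 0.0119, adjusted p = 0.523 by edgeR). In MV_PEEP over MV it was −1.02 (SE 0.69) with all libraries, 0.04 without MV replicate 1 and −1.53 without MV replicate 3 (unadjusted p = 0.00400, adjusted p = 0.999 by edgeR). In MV_PEEP over CON it was −0.29 (SE 0.68) with TMM scaling and 0.08 with total counts. A second annotated gene, LOC103349518, lies on the same strand within the span of ATM and held 0 to 23 reads a library.

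ATR, the apical kinase for stalled replication and single-stranded DNA, had overlapping groups at 1.07, 1.19 and 0.721 FPKM in the MV libraries, 1.07, 1.38 and 1.48 FPKM in the MV_PEEP libraries and 0.623, 1.05 and 1.22 FPKM in the CON libraries. Its log2 fold change was −0.06 (95% interval −0.83 to 0.71) in MV over CON, which turned to 0.05 with total counts, and 0.11 (95% interval −0.65 to 0.88) in MV_PEEP over CON.

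NBN, the MRN subunit that brings ATM to break ends, measured 17.5, 15.0 and 17.0 FPKM in the MV libraries, 13.4, 12.9 and 16.1 FPKM in the MV_PEEP libraries and 6.22, 10.4 and 7.05 FPKM in the CON libraries. All ventilated libraries lay above all CON libraries, also after TMM scaling. The mean was 16.5 ± 1.31 FPKM in the MV group, 14.1 ± 1.75 FPKM in the MV_PEEP group and 7.89 ± 2.21 FPKM in the CON group (SD, n = 3 each). The log2 fold change was 1.01 (SE 0.28) in MV over CON, with an unadjusted p of 0.00523 and an adjusted p of 0.486 by edgeR, and 0.53 (SE 0.28) in MV_PEEP over CON. By DESeq2 the adjusted p in MV over CON was 0.0592. In MV_PEEP over MV the log2 fold change of NBN was −0.48 (95% interval −1.10 to 0.15). Over the 6 ventilated and 3 CON libraries the exact 2-sided permutation p of the mean FPKM was 0.0119, unadjusted. By edgeR the log2 fold change in that comparison was 0.77, with an adjusted p of 0.474.

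RAD50, the ATPase subunit of the same complex, measured 9.33, 12.3 and 12.7 FPKM in the MV libraries, 15.6, 12.5 and 10.2 FPKM in the MV_PEEP libraries and 8.31, 8.50 and 6.03 FPKM in the CON libraries. In FPKM the ventilated and CON libraries did not overlap, but on TMM-scaled counts they did. Its log2 fold change was 0.52 (SE 0.39) in MV over CON and 0.47 (SE 0.39) in MV_PEEP over CON by edgeR, within the spread between libraries.

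PARP3, an ADP-ribosyltransferase that acts at double-strand breaks, was the most abundant of the 9 genes by mean FPKM in both ventilated groups and ranked 4 of 9 in the CON group. It measured 26.1, 31.3 and 9.13 FPKM in the MV libraries, 24.96, 16.9 and 58.5 FPKM in the MV_PEEP libraries and 3.43, 6.07 and 2.75 FPKM in the CON libraries. Each ventilated library lay above each CON library, but the ventilated libraries spread widely, with MV_PEEP library 3 the highest and MV library 3 the lowest. The log2 fold change was 2.31 (SE 0.48) in MV over CON, with an unadjusted p of 0.000672 and an adjusted p of 0.287 by edgeR with Benjamini-Hochberg adjustment, and 2.64 (SE 0.48, unadjusted p = 0.000275, adjusted p = 0.320 by edgeR) in MV_PEEP over CON. By DESeq2 the adjusted p was 0.000821 in MV over CON and 5.64e-05 in MV_PEEP over CON. In MV_PEEP over MV the log2 fold change of PARP3 was 0.33 (95% interval −0.69 to 1.34) and −0.04 without MV_PEEP replicate 3. That library also had the highest fibroblast, macrophage and proliferation markers. On OryCun 2.0 PARP3 spans chromosome 9 from 19075277 to 19081347 on the plus strand, and RRP9, on the minus strand, lies 162 bp away.

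PARP1, the most studied enzyme of the family and a sensor of single-strand breaks, measured 9.09, 9.34 and 9.99 FPKM in the MV libraries, 8.60, 10.9 and 13.0 FPKM in the MV_PEEP libraries and 7.14, 10.3 and 5.84 FPKM in the CON libraries. The groups overlapped, and the log2 fold change was 0.23 (95% interval −0.41 to 0.88) in MV over CON and 0.15 (95% interval −0.50 to 0.80) in MV_PEEP over CON by edgeR.

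OGG1, the glycosylase for oxidized guanine, was the only member whose libraries of the MV group lay below all other libraries. It measured 1.47, 1.12 and 1.49 FPKM in the MV libraries, 3.66, 2.99 and 5.23 FPKM in the MV_PEEP libraries and 3.28, 4.07 and 3.75 FPKM in the CON libraries. In reads these were 30, 40 and 53 in the MV group, 109, 81 and 175 in the MV_PEEP group and 85, 85 and 67 in the CON group. The mean was 1.36 ± 0.210 FPKM in the MV group, 3.96 ± 1.15 FPKM in the MV_PEEP group and 3.70 ± 0.399 FPKM in the CON group (SD, n = 3 each). The log2 fold change was −1.51 (SE 0.51, 95% interval −2.64 to −0.38) in MV over CON, with an unadjusted p of 0.0137 and an adjusted p of 0.567 by edgeR. In MV_PEEP over MV it was 1.24 (SE 0.50, 95% interval 0.12 to 2.36), with an unadjusted p of 0.0337 and an adjusted p of 0.985 by edgeR. DESeq2 gave adjusted p-values of 0.129 and 0.819 for these comparisons. In MV_PEEP over CON the groups overlapped, and the log2 fold change of −0.28 (95% interval −1.38 to 0.83) turned to 0.09 with total counts. OGG1 has the shortest locus of the 9 genes, 3213 bp on an unplaced scaffold.

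**Figure D2:**
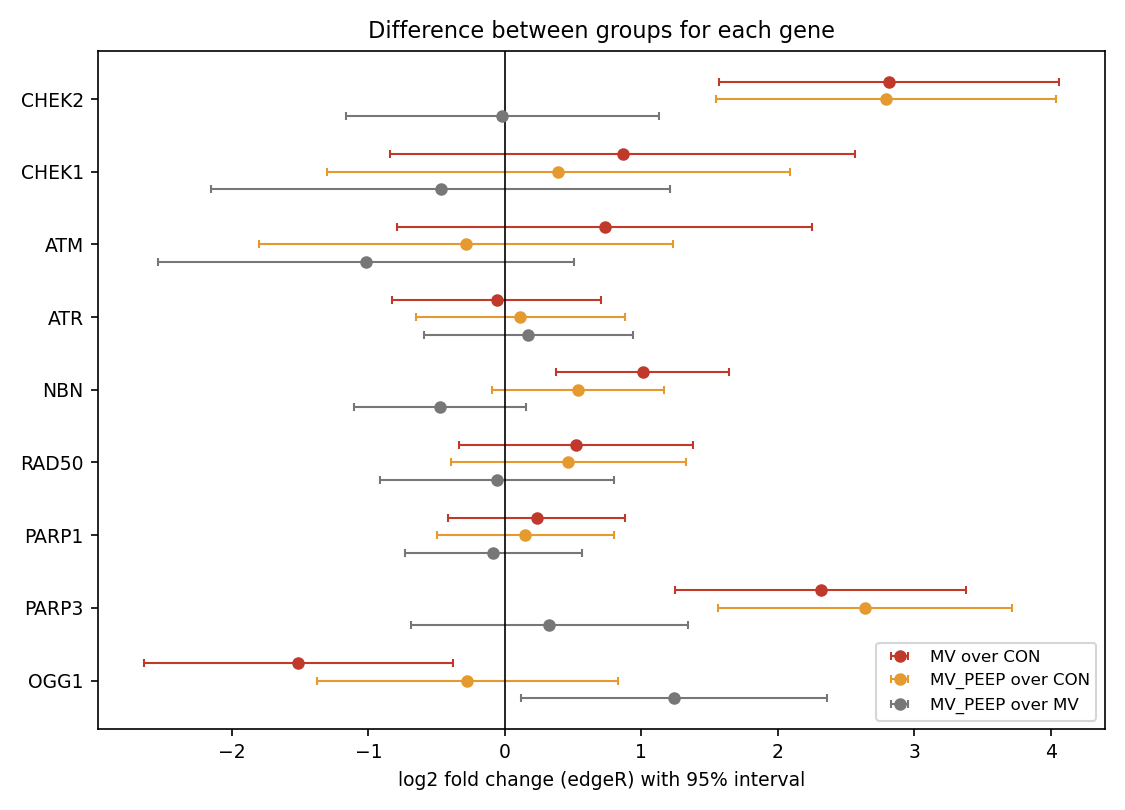
Log2 fold change (x axis) of each gene (rows) from edgeR for MV over CON, MV_PEEP over CON and MV_PEEP over MV, with 95% intervals that are not adjusted for the number of genes. The intervals of CHEK2 and PARP3 lie above 0 in both comparisons with the CON group, and that of NBN lies above 0 in MV over CON. Those of OGG1 lie below 0 in MV over CON and above 0 in MV_PEEP over MV.

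On the FPKM scale, 4 of the 9 genes (CHEK2, NBN, RAD50 and PARP3) lay higher in every MV library than in any CON library, against 10.3% of all genes, and 1 of 9 (OGG1) lay lower, against 4.91%. The same 4 genes lay higher in every MV_PEEP library than in any CON library, against 14.2% of all genes, and in all 6 ventilated libraries, against 5.99%. Between the ventilated groups 1 of 9 (OGG1) lay higher in every MV_PEEP library than in any MV library, against 4.86%. On TMM-scaled counts RAD50 overlapped in these comparisons, which left 3 of 9 genes higher in MV over CON, in MV_PEEP over CON and in the 6 ventilated libraries. On that scale ATM lay lower in every MV_PEEP library than in any CON library, and NBN lay lower in every MV_PEEP library than in any MV library. OGG1 kept its positions there, lower in MV over CON and higher in MV_PEEP over MV. The shares of all genes on TMM-scaled counts were not computed, so the counts of members on that scale have no background beside them. The median log2 fold change of the 9 genes was 0.73 in MV over CON, 0.39 in MV_PEEP over CON and −0.05 in MV_PEEP over MV, where the median over all 12981 genes was 0.02, 0.06 and −0.00. With 9 genes these medians were the values of single members, ATM (SE 0.68), CHEK1 (SE 0.76) and RAD50 (SE 0.39). The ATM value was −0.33 without MV replicate 1, and the CHEK1 value was −0.04 without CON replicate 1. Total-count scaling moved the median of all genes to 0.13, 0.42 and 0.25 in these comparisons, and log2(FPKM + 1) moved it to 0.06, 0.28 and 0.19, so FPKM differences of a size near these shifts depend on the scaling.

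By mean FPKM the order was PARP3, NBN, RAD50, PARP1, CHEK2, ATM, OGG1, ATR and CHEK1 in the MV group, PARP3, NBN, RAD50, PARP1, CHEK2, OGG1, ATR, ATM and CHEK1 in the MV_PEEP group, and NBN, PARP1, RAD50, PARP3, OGG1, ATM, ATR, CHEK2 and CHEK1 in the CON group. CHEK2 thus ranked 5 of 9 in both ventilated groups and 8 of 9 in the CON group. Most neighbours overlapped. Neighbours that did not were NBN and RAD50, and PARP1 and CHEK2, in the MV group; PARP3 and NBN, PARP1 and CHEK2, and OGG1 and ATR in the MV_PEEP group; and OGG1 and ATM in the CON group.

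Ratios within a library do not depend on the scaling between libraries, and 5 ratios of functionally paired genes were computed after their values had been seen, so they are descriptions without a test. PARP3 over PARP1 was 2.87, 3.35 and 0.913 in the MV libraries, 2.90, 1.55 and 4.51 in the MV_PEEP libraries and 0.480, 0.588 and 0.470 in the CON libraries. PARP3 was therefore the less abundant of the pair in all CON libraries and in MV library 3, and the more abundant in the other 5 ventilated libraries. CHEK2 over ATR was 5.06, 3.87 and 3.04 in the MV libraries, 4.77, 2.97 and 2.79 in the MV_PEEP libraries and 1.13, 0.527 and 0.201 in the CON libraries, with no overlap between the ventilated and CON libraries. OGG1 over PARP1 was 0.162, 0.120 and 0.149 in the MV libraries, 0.425, 0.273 and 0.403 in the MV_PEEP libraries and 0.459, 0.394 and 0.642 in the CON libraries, so the MV libraries were the lowest and the other groups overlapped. The ratios CHEK2 over CHEK1 and NBN over RAD50 overlapped between all groups.

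**Figure D3:**
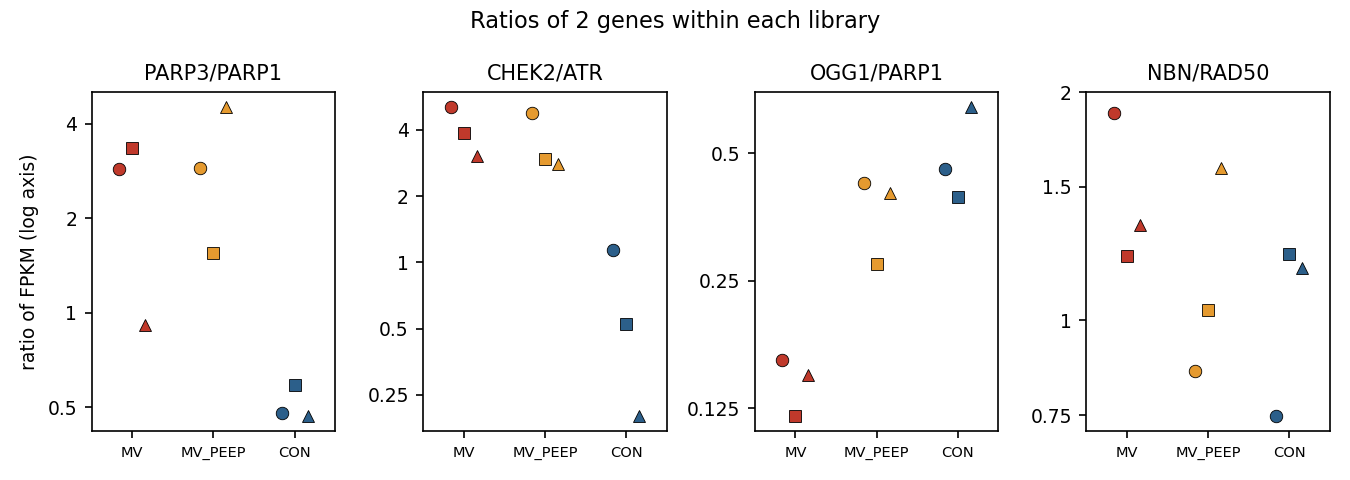
Ratios of the FPKM of a pair of genes within each library (log axes, a separate scale for each panel) for the MV, MV_PEEP and CON groups, with replicates 1, 2 and 3 as circles, squares and triangles. PARP3 over PARP1 and CHEK2 over ATR are higher in all 6 ventilated libraries than in the CON libraries, OGG1 over PARP1 is lowest in the MV group, and NBN over RAD50 overlaps.

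The 9 genes were set beside 12 lists of damage response and repair genes, of which 128 genes other than the members were tested. By edgeR 0 of these 128 passed an adjusted p below 0.05. At an unadjusted p below 0.05, 5 were higher (3.91%) and 3 lower (2.34%) in MV over CON, against 3.77% and 3.19% of all genes. In MV_PEEP over CON 7 were higher (5.47%) and 2 lower (1.56%), against 3.23% and 3.02% of all genes. In MV_PEEP over MV 1 was higher (0.781%) and 2 lower (1.56%), against 2.26% and 1.26%, and in the ventilated libraries over CON 6 were higher (4.69%) and 2 lower (1.56%), against 3.6% and 3.84%. The counts of these 128 genes in MV over CON were thus near the share of all genes. Those higher in MV_PEEP over CON included PLK3 (log2 fold change 2.82), TIMELESS (1.76), FANCD2 (1.48), APEX2 (1.33), GTF2H1 (0.93) and PARP4 (0.86). In FPKM the MV_PEEP and CON libraries overlapped for TIMELESS and FANCD2. Those lower in MV_PEEP over CON were POLM (−1.11), a polymerase of end joining, and ERCC8 (−0.82), a factor of transcription-coupled repair, and those that passed in MV_PEEP over MV were PMS2 (0.97), of mismatch repair, RNF168 (−0.98) and AEN (−0.94), an exonuclease induced by p53; APEX2, ERCC8, PMS2 and AEN are named after their values were seen. The median log2 fold change of the 128 genes was 0.11 in MV over CON, against 0.02 over all genes.

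Of all genes, 3.77% were higher and 3.19% lower in MV over CON at an unadjusted p below 0.05 by edgeR. Among the checkpoint and PIKK kinases, CHEK2 was the only 1 of 7 past an unadjusted p of 0.05 in MV over CON (list median 0.50). In the list of the MRN complex and end resection it was NBN, 1 of 4 (list median 0.77), and RBBP8, the end resection factor CtIP, had 1.04, 0.352 and 0.480 FPKM in the MV libraries, 0.379, 0.556 and 2.26 FPKM in the MV_PEEP libraries and 0.0727, 0.425 and 0.274 FPKM in the CON libraries, which overlapped. Of the 12 checkpoint clamp, loader and mediator genes and the 10 chromatin mediators, 0 passed that threshold in MV over CON (list medians 0.21 and −0.05), and in MV_PEEP over CON 1 gene of the 12, TIMELESS, was higher. TIMELESS had 0.353, 0.61 and 3.46 FPKM in the MV_PEEP libraries and 0.21, 0.321 and 0.355 FPKM in the CON libraries, which overlapped. Its highest value was in MV_PEEP library 3, which also had the highest fibroblast, macrophage and proliferation markers. RNF168, a ubiquitin ligase that marks chromatin at breaks, had 13.0, 6.92 and 2.77 FPKM in the MV libraries, 3.78, 4.05 and 4.95 FPKM in the MV_PEEP libraries and 3.07, 5.47 and 4.30 FPKM in the CON libraries. Like ATM, RNF168 was highest in MV library 1 and lowest in MV library 3 of all 9 libraries.

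Of 18 PARP family genes and partners, 3 were higher (PARP3, PARP4 and TIPARP) and 1 was lower (XRCC1) in MV over CON at an unadjusted p below 0.05, with a list median of 0.24 and against 3.77% of all genes higher and 3.19% lower. TIPARP, a mono-ADP-ribosyltransferase, had 5.62, 2.49 and 3.85 FPKM in the MV libraries, 3.68, 3.78 and 3.83 FPKM in the MV_PEEP libraries and 1.10, 2.38 and 1.91 FPKM in the CON libraries, with a log2 fold change of 1.09 in MV over CON. PARP4, the PARP of vault particles, had 4.21, 7.05 and 3.25 FPKM in the MV libraries, 4.29, 4.61 and 8.64 FPKM in the MV_PEEP libraries and 1.96, 3.21 and 2.29 FPKM in the CON libraries, with a log2 fold change of 0.86 in MV over CON. PARP4 lay higher in each ventilated library than in any CON library, if only narrowly. XRCC1, the scaffold of single-strand break repair that binds PARP products, had 7.31, 10.3 and 5.12 FPKM in the MV libraries, 8.30, 12.7 and 20.6 FPKM in the MV_PEEP libraries and 10.3, 14.7 and 14.2 FPKM in the CON libraries, with a log2 fold change of −0.90 in MV over CON.

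Base excision repair held 15 tested genes, of which OGG1 alone was past an unadjusted p of 0.05 in MV over CON, and the list median was 0.20. At that threshold 3.77% of all genes were higher and 3.19% lower. The next smallest p-values in that list were those of APEX1, UNG and POLB, none of which passed an unadjusted p of 0.05. APEX1, the endonuclease that cuts at the site left by a glycosylase, had 22.7, 32.3 and 21.9 FPKM in the MV libraries, 23.2, 25.1 and 41.5 FPKM in the MV_PEEP libraries and 17.7, 21.0 and 13.1 FPKM in the CON libraries. In FPKM APEX1 lay higher in each ventilated library than in any CON library, with a log2 fold change of 0.48 (SE 0.29) in MV over CON and 0.42 (SE 0.29) in MV_PEEP over CON. For UNG, the glycosylase for uracil, it was 0.53 (SE 0.42), and for POLB, the gap-filling polymerase of the pathway, 0.55 (SE 0.53), both in MV over CON. In non-homologous end joining (9 genes), homologous recombination (10 genes) and mismatch repair (7 genes), 0 genes passed the unadjusted threshold in MV over CON. The list medians were −0.02, 0.09 and −0.17. In MV_PEEP over CON 1 end joining gene was lower (POLM), and 1 recombination gene (FANCD2) and 1 mismatch repair gene were higher. FANCD2 had 3.72, 21 and 6.38 FPKM in the MV_PEEP libraries and 1.99, 2.59 and 4.36 FPKM in the CON libraries. These overlapped, as did the values of POLM. In nucleotide excision repair (16 genes, list median −0.01) GTF2H1, a subunit of TFIIH, was higher at a log2 fold change of 0.78, and DDB2, a sensor of ultraviolet lesions, was lower at −0.86.

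**Figure D4:**
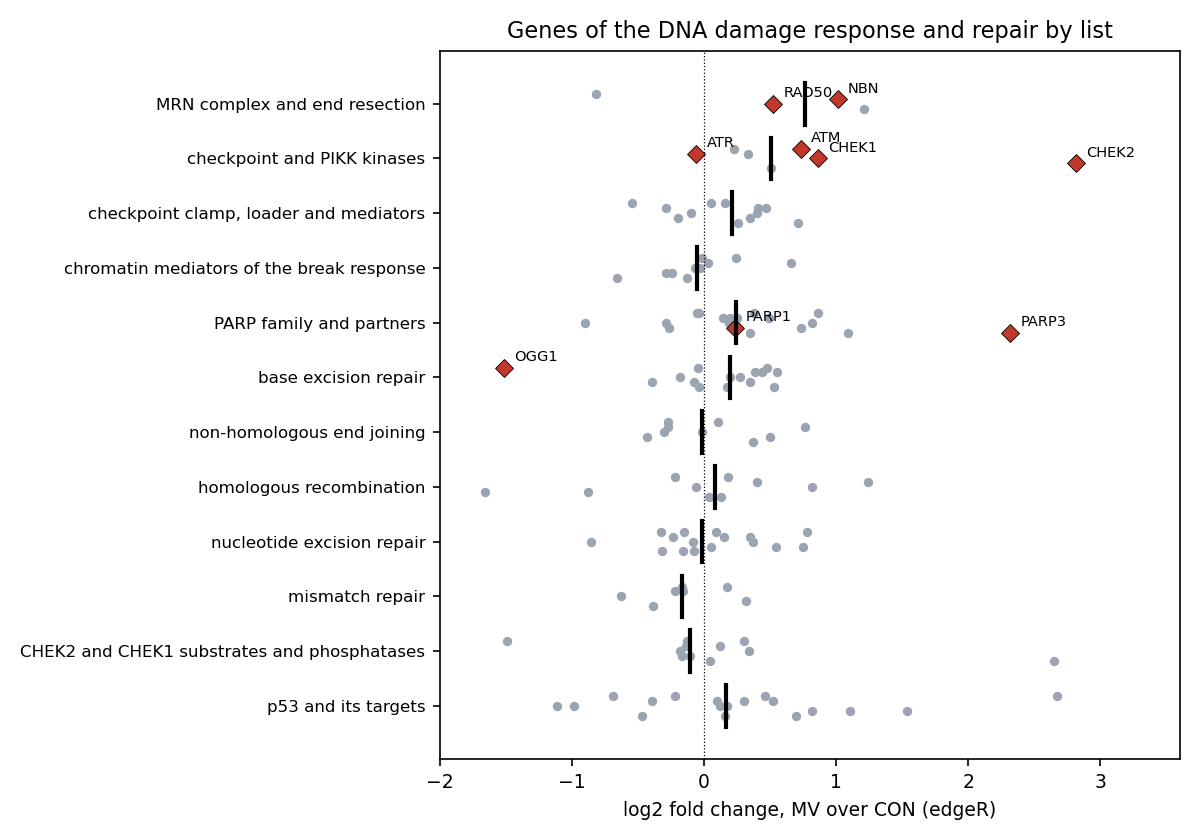
Log2 fold change in MV over CON from edgeR (x axis) of each tested gene of the 12 lists (rows). Grey points are other genes, red diamonds are the members and black bars are list medians. CHEK2 at 2.81 and PARP3 at 2.31 lie at the upper end and OGG1 at −1.51 at the lower end of their lists.

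Downstream of the checkpoint kinases, 1 of 11 CHEK2 and CHEK1 substrates and phosphatases was higher (PLK3, a stress-responsive kinase, log2 fold change 2.65) and 1 was lower (WEE1, a brake on entry into mitosis, −1.49) in MV over CON at an unadjusted p below 0.05, against 3.77% and 3.19% of all genes, with a list median of −0.11. PLK3 had 1.80, 1.08 and 0.266 FPKM in the MV libraries, 0.627, 1.43 and 2.07 FPKM in the MV_PEEP libraries and 0.0418, 0.421 and 0 FPKM in the CON libraries, and the MV and CON groups overlapped. They also overlapped for WEE1, at 1.57, 0.91 and 0.444 FPKM in the MV libraries and 0.987, 3.1 and 3.45 FPKM in the CON libraries. Of 18 genes of p53 and its targets, 1 was higher, CDKN1A, which encodes the cyclin-dependent kinase inhibitor p21, with a list median of 0.17. CDKN1A had 27.9, 10.5 and 1.49 FPKM in the MV libraries, 3.77, 9.14 and 12.3 FPKM in the MV_PEEP libraries and 0.593, 2.12 and 2.73 FPKM in the CON libraries. Its log2 fold change was 2.67 in MV over CON, with an adjusted p of 0.549 by edgeR, and MV library 3 lay within the range of the CON libraries.

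CHEK2 was also compared with every gene of at least 1 FPKM on average that carried a symbol, 9793 genes, by the mean absolute difference of centred log2 CPM (counts scaled to library size) over the 9 libraries. The closest profiles were those of FBXO32, the muscle ubiquitin ligase MAFbx (0.43), PLBD1 (0.48), MLYCD, malonyl-CoA decarboxylase (0.52), SLC25A20, the mitochondrial carnitine carrier (0.52), and KLF11, a zinc finger transcription factor (0.54). Among the other members PARP3 was at rank 6 with 0.56, NBN was at rank 412 and OGG1 at rank 8612, and CHEK1 lay under 1 FPKM on average and was not ranked. FBXO32 had 136, 63.1 and 35.2 FPKM in the MV libraries, 101, 82.2 and 73.1 FPKM in the MV_PEEP libraries and 21.4, 25.6 and 3.31 FPKM in the CON libraries. As for CHEK2, MV library 3 was the lowest of the ventilated libraries and CON library 3 the lowest of all. The measure rests on 9 libraries that share 3 groups, so any gene that separates ventilated from CON libraries scores well, and the likeness is a description.

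**Figure D5:**
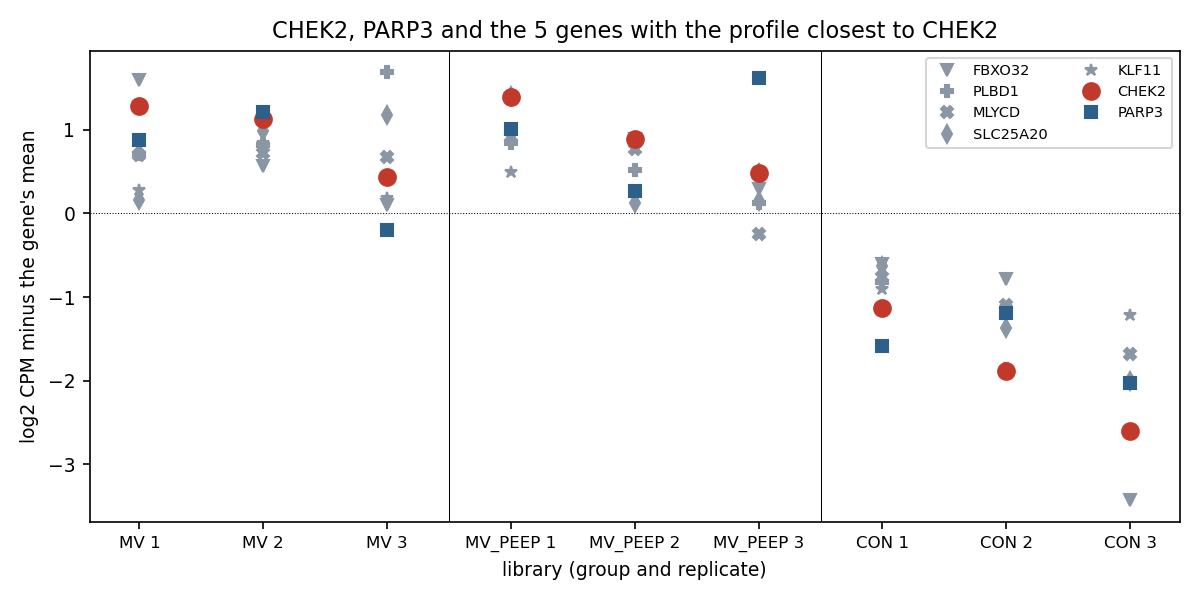
Log2 CPM minus the gene's own mean over the 9 libraries (y axis) for CHEK2, PARP3 and the 5 genes closest to CHEK2, in the MV, MV_PEEP and CON libraries. All 7 genes lie below 0 in the 3 CON libraries, and CHEK2 lies above 0 in the 6 ventilated libraries.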

How the data were processed

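Diaphragm RNA of 9 rabbit libraries (3 each of MV, MV_PEEP and CON) was sequenced by the authors. The submitters' processing notes name cutadapt 1.9, HISAT2 2.0.4, OryCun 2.0 and StringTie 1.3.4d. The deposited table gives, per gene and library, a whole-number count without scaling and an FPKM value, which the authors scaled to transcript length and library size; it writes 0.0001 for 0. The counting program and annotation release are not given in the sources used here. Symbols starting with LOC were replaced for 764 genes through the RefSeq table, used for names only because its assembly differs. Coordinates are the table's.

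The 12981 genes at or above a mean of 0.5 FPKM were tested on counts with edgeR 4.0.16 in R 4.3.3 (TMM, 1 mean per group, all 9 libraries, quasi-likelihood F test), with Benjamini-Hochberg adjustment over all of them and a threshold of 0.05. Intervals of fold changes are 95% intervals of that fit. Exact 2-sided permutation tests compared mean FPKM. The fits were tested on simulated data. Centred profiles used log2 CPM with a prior count of 2. Alternatives were DESeq2 1.42.0, limma 3.58.1 on log2(FPKM + 1) and log2(FPKM + 0.1), other scalings and filters, counts divided by 4, a fit of only the groups compared, a block for the replicate number, and leaving out each library.

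The members and all lists (12 pathway lists and the cell type markers) were chosen with earlier results of these data known. Named genes were the members, up to 4 genes per pathway list with the smallest p in MV over CON, and the 5 genes closest to CHEK2 among those with a mean of at least 1 FPKM. No protein or promoter sequences were used here. The result of 1 gene is not reported here.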

Additional observations from a re-analysis of the deposited data

How the results depend on the processing

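CHEK2 and PARP3 kept their direction against the CON group, and an unadjusted p below 0.05, under every alternative tried: the log2 fold change in MV over CON ranged over 1.71 to 3.29 for CHEK2 and 2.004 to 2.63 for PARP3, and their adjusted p over 0.000548 to 0.860 and 0.000821 to 0.860. No member passed an adjusted p of 0.05 in edgeR or limma under any setting, but with DESeq2 2 members did in MV over CON, 2 in MV_PEEP over CON and 2 in the ventilated libraries over CON. Of all genes, edgeR called 0 in each comparison except for 3 in ventilated over CON without a filter 1 in MV_PEEP over CON without CON replicate 3, 1 in MV_PEEP over MV without MV replicate 1, and 1 in ventilated over CON without CON replicate 2, CON replicate 3 or MV replicate 3. Counts by DESeq2 were 154, 98, 15 and 203 and the cause was not tested; limma on log2(FPKM + 0.1) called 2, 2, 0 and 5. The replicate numbers did not pair the libraries (correlation of same-numbered libraries −0.28 to 0.36, and 2 of 9 libraries closest to one of their own number), and with a replicate block the members called stayed at 0 and CHEK2 was at 2.90 in MV over CON. OGG1 in MV_PEEP over MV lost its unadjusted p below 0.05 in 6 of 19 alternatives (p up to 0.101). Some values changed sign. With total counts, log2(FPKM + 1) and log2(FPKM + 0.1), the fold change became 0.082, 0.034 and 0.050 for ATM and 0.092, 0.056 and 0.063 for OGG1 in MV_PEEP over CON, 0.053, 0.028 and 0.061 for ATR in MV over CON, and 0.12, 0.16 and 0.21 for CHEK2, 0.20, 0.16 and 0.17 for PARP1 and 0.16, 0.13 and 0.14 for RAD50 in MV_PEEP over MV; CHEK2 was at 0.0068 there with only the groups compared. Leaving out single libraries gave −0.33 to 1.25 (MV over CON), −0.31 to 0.49 (ventilated over CON) and −1.53 to 0.041 (MV_PEEP over MV) for ATM, −0.25 to 0.18 (MV over CON), −0.051 to 0.38 (MV_PEEP over CON) and −0.15 to 0.28 (ventilated over CON) for ATR, −0.035 to 1.20 for CHEK1 in MV_PEEP over CON, and in MV_PEEP over MV −0.29 to 0.19 for CHEK2, −0.20 to 0.12 for PARP1, −0.041 to 0.64 for PARP3 and −0.39 to 0.24 for RAD50. The counts of CHEK1, OGG1 and, in the CON group, CHEK2 were low, so counting error adds to their spread, and its share of that spread was not tested.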
